A study of Mus musculus with 6 samples.

Results

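The genes described here are 38 listed symbols that mark B cells or carry B cell receptor signalling. They cover pan-B surface proteins, receptor signalling proteins and B lineage transcription factors, and genes used to tell follicular, marginal zone, B-1, germinal centre and plasma cells apart. Members were found by an exact match of the gene symbol in a table of 22183 genes, and 36 of the 38 had a row, each with 1 row. Faim3 is an older symbol of Fcmr, which is itself a member, and S1pr2b had no row. All 36 passed the filter on low counts, and the lowest count of any member in any library was 31, for Tnfrsf17.

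RNA was sequenced from cells isolated as endothelial cells (ECs) from peritoneal tissue of 3 mice given saline and 3 mice given peritoneal dialysis (PD) fluid. Both treatments were intraperitoneal and lasted 6 weeks, and all animals were wild type (WT). The study describes them as male C57BL/6J mice, with PD fluid rich in glucose as a model of long-term dialysis. It states that the cells were isolated from the mesentery along the small intestine. Each library came from 1 mouse, and the comparison asks how the transcripts of the isolated cells differed between PD mice and saline mice.

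A B cell carries a membrane immunoglobulin whose signal passes through Cd79a and Cd79b to the kinases Syk, Blk and Btk and the adaptor Blnk. Pax5 and Ebf1 hold the B cell programme in place, and plasma cell differentiation replaces it through Prdm1 (Blimp-1) and Irf4. The peritoneal cavity and the milky spots of omentum and mesentery are known for B-1 cells beside conventional follicular-type B cells.

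Total counts ran from 21973426 to 26374292 per library. The sample labels describe magnetic sorting on CD31 (Pecam1), whereas the methods describe sorting of CD31+ CD45- cells. Ptprc, which encodes CD45, had a median of 614 FPKM in saline mice and 388 FPKM in PD mice, against 142 and 156 FPKM for Pecam1, so the libraries held leukocyte transcripts at a higher level per length than the endothelial sort marker. The B cell genes Cd79a and Ms4a1 had counts in all 6 libraries, with medians of 1392 and 307 FPKM in saline mice and 606 and 136 FPKM in PD mice. None of the 6 libraries was therefore free of B cell RNA, and in such bulk samples fewer B cells and less RNA per B cell cannot be told apart. Of 8 pancreatic acinar genes, all 8 were called higher in PD mice, and their share of counts was 0.000328% to 0.000792% in saline mice and 0.927% to 1.27% in PD mice.

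Expression is given as CPM, a gene's reads as a rate of all reads of its library, after TMM scaling when mice are compared. It is given as the deposited FPKM, which also divides by transcript length, when genes are compared with each other. Differences are log2 fold changes of PD over saline with their standard errors (SE), and adjusted p-values come from the quasi-likelihood test of edgeR over 14005 genes (Benjamini-Hochberg, threshold 0.05).

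B cell genes were lower in PD mice. Of the 36 members, 28 fell, 4 rose and 4 did not pass the test, whereas 58.9% of all tested genes were called, 27.8% lower and 31.1% higher. The median log2 fold change of the members was -0.76, from -1.46 to 0.95, against 0.02 over all tested genes. A split of 28 lower to 4 higher was also counted after scaling to T cell markers. On that scale 11.1% of all tested genes were lower and 44.9% higher. After scaling to endothelial markers 35 members were lower, when 72.2% of all tested genes were lower. Scaling to other B cell genes turned most members towards 0 or above it, when 93.0% of all tested genes were higher. Summed over the members, expression was 11754 to 12347 CPM in saline mice and 6136 to 6294 CPM in PD mice, which is 51.5% of the saline level. The members took 1.18% to 1.22% of all counts in saline mice and 0.615% to 0.632% in PD mice. In 28 members every PD mouse lay below every saline mouse (31.6% of all tested genes), and in 3 every PD mouse lay above (34.0%), when 65.6% of all tested genes had groups that did not overlap either way.

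**Figure D1:**
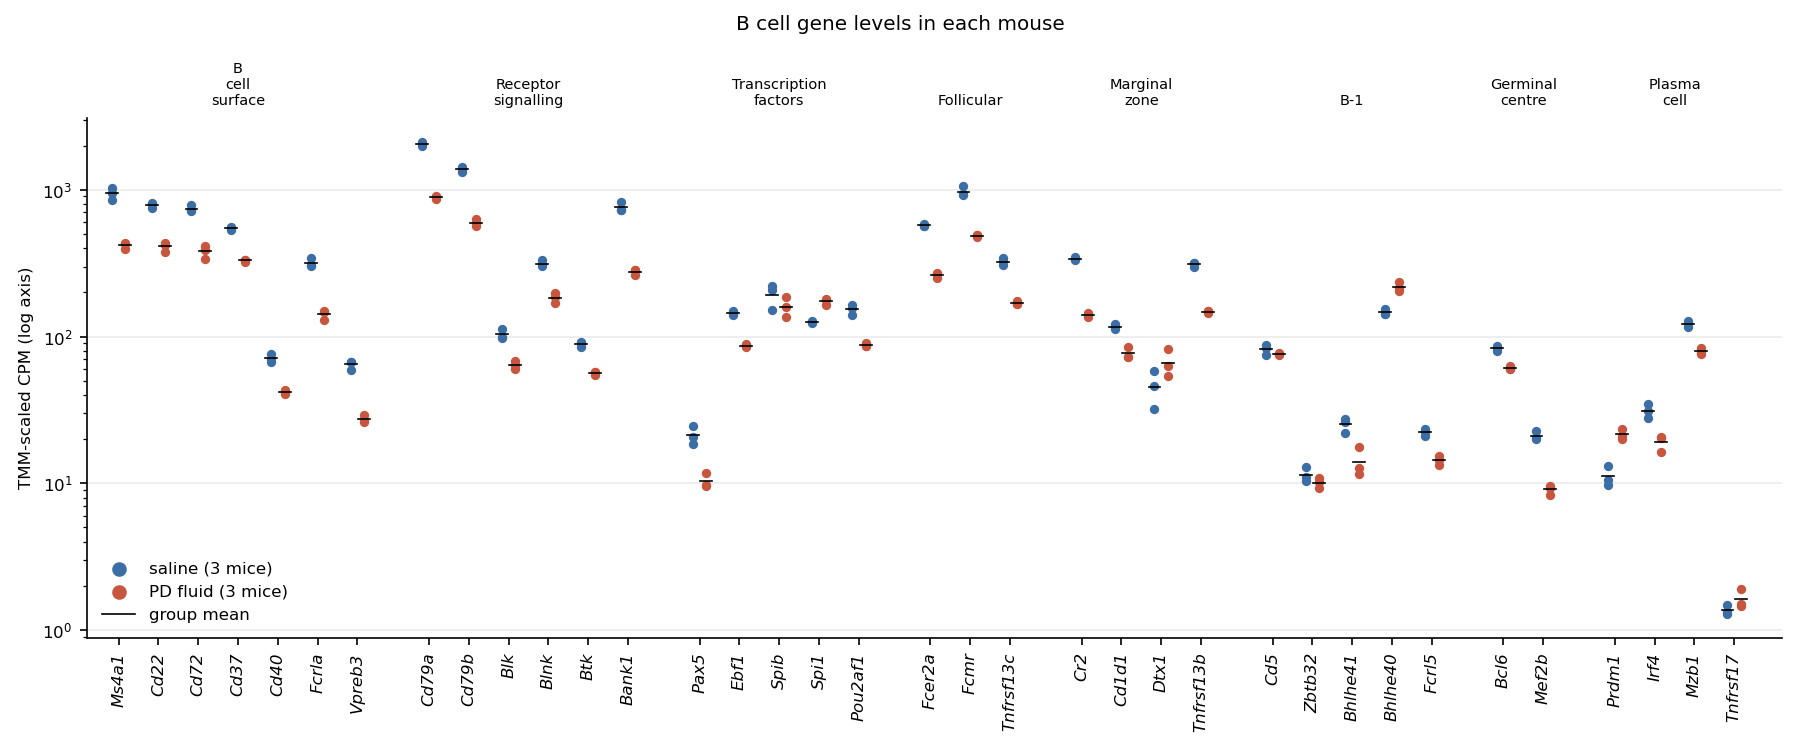
TMM-scaled CPM of each member in each mouse on a log axis, with saline and PD mice as points of separate colour, short lines at the group means, and members grouped by the cell type or function they mark. The PD mice lie below every saline mouse in 28 members and above them in Spi1, Bhlhe40 and Prdm1.

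Per length, the 2 receptor chains stood first. Cd79a had a median of 1392 FPKM in saline mice and 606 FPKM in PD mice, and Cd79b 1149 and 488 FPKM. Fcmr (585 FPKM in saline mice), Cd72 (495 FPKM), Cd37 (415 FPKM) and Ms4a1 (307 FPKM) followed. The lowest levels were those of Tnfrsf17 at 1.63 FPKM and Prdm1 at 2.16 FPKM, both plasma cell genes, and of Bhlhe41 at 4.24 FPKM, a regulator of B-1 cells. The first 2 places were the same in PD mice, whereas Bank1 moved from rank 9 to rank 14, Spi1 from rank 18 to rank 11 and Bhlhe40 from rank 21 to rank 15.

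**Figure D2:**
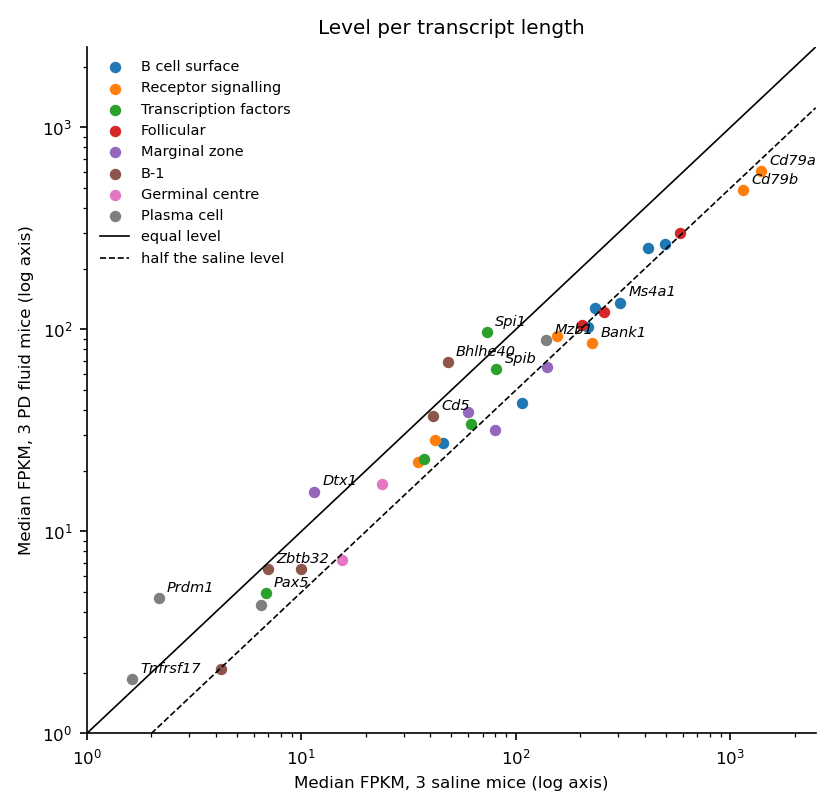
Median FPKM of each member in saline mice (horizontal) and PD mice (vertical), both on log axes, with a solid line of equal level, a dashed line at 50% of the saline level and colours for the groups of members. Most members lie below the line, from Cd79a at 1392 FPKM in saline mice down to genes of a few FPKM, and Spi1, Dtx1, Bhlhe40, Prdm1 and Tnfrsf17 lie above it.

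B lineage motifs of 4 kinds were looked for in the 250 bases before the start site of 28 members with a promoter in RefSeq (33 promoters, build GRCm38.p6), on both strands. The octamer ATGCAAAT, the site of POU factors that work with Pou2af1, was found before Blnk, Mef2b and Vpreb3, in 9.09% of member promoters and 1.60% of all 32851 promoters. The letters GGAA and GAAA with any 2 bases between them, a composite of an ETS site (Spi1, Spib) and an IRF site (Irf4), were found before Bank1 and Bcl6, in 6.06% of member promoters and 2.30% of all. GAGGAAGT, a PU.1 type of ETS site, was found before Cd37, Cd5 and Cd72, in 9.09% of member promoters and 2.44% of all, and it shares the letters GGAA with the composite. The letters TCCC and GGGA with any 2 bases between them, the EBF type of site, were found before Cd22, in 3.03% of member promoters and 0.779% of all. A match describes the letters of the window and was not measured as a bound site. The promoters of Vpreb3 and Mef2b (octamer) and of Bank1 and Bcl6 (composite) are shown because their windows hold no annotated exon. The windows of Vpreb3, Mef2b and Bcl6 lie inside the span of the gene in GENCODE M21, before a RefSeq start site within it. That of Bank1 lies outside the span. The other 5 of the 9 windows with a match, those of Cd22, Blnk, Cd72, Cd37 and Cd5, overlap exons in GENCODE M21, and in Blnk and Cd37 the matched letters themselves lie in an exon. Each sequence is the gene's strand, 5′ to 3′, ending at the base before the start site, and capitals mark the motif.
Vpreb3 promoter, chr10:75948050-75948299, plus strand: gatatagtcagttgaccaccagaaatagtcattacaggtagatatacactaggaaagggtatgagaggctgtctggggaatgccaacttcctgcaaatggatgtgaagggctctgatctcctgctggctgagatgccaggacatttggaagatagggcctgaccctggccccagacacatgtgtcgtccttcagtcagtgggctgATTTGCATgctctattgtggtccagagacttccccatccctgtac
Mef2b promoter, chr8:70152511-70152760, plus strand: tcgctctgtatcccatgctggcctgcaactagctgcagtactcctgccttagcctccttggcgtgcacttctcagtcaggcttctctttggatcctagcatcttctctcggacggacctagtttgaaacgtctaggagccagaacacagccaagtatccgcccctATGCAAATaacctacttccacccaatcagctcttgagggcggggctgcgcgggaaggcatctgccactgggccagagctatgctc
Bank1 promoter, chr3:136326067-136326316, minus strand: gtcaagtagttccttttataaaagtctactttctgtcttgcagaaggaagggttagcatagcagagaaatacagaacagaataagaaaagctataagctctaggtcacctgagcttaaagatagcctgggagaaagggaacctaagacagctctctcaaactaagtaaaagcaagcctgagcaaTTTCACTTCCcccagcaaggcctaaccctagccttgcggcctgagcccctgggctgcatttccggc
Bcl6 promoter, chr16:23981284-23981533, minus strand: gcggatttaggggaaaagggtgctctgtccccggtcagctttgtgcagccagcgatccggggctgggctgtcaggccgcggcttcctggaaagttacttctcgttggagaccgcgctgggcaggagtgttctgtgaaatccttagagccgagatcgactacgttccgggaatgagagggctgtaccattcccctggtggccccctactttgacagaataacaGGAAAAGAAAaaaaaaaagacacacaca
In the Vpreb3 and Bank1 windows the motif reads on the opposite strand. The log2 fold changes of these genes were -1.24 (Vpreb3), -1.21 (Mef2b), -1.46 (Bank1) and -0.45 (Bcl6).

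All 6 receptor signalling members fell, with a median log2 fold change of -0.99, and their summed expression was 44.0% of the saline level. Cd79a (ENSMUSG00000003379, GRCm38 chr7:24897381-24902197), the Igα signalling chain of the receptor, measured 2117, 2056 and 1984 CPM in the saline mice and 892, 870 and 905 CPM in the PD mice. The fall was -1.21 (SE 0.06, adjusted p = 3.10e-08 by edgeR), from 2052 ± 66.4 CPM to 889 ± 17.4 CPM (SD, n = 3 mice each). Cd79b, the Igβ chain, measured 1391, 1432 and 1322 CPM in saline mice and 571, 590 and 633 CPM in PD mice, a log2 fold change of -1.21 (SE 0.06, adjusted p = 6.70e-08 by edgeR). Both chains fell in step, for the ratio of their CPM was 1.44 to 1.52 in saline mice and 1.43 to 1.56 in PD mice, so that the groups overlapped in this ratio.

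Bank1, a B cell scaffold protein that links the receptor to calcium release, fell most of all members. It measured 733, 826 and 731 CPM in saline mice and 264, 285 and 283 CPM in PD mice, a log2 fold change of -1.46 (SE 0.07, adjusted p = 2.55e-08 by edgeR), or 2.75-fold lower. The adaptor and the 2 kinases among the members had smaller falls. Blnk, the adaptor that Syk phosphorylates, measured 302, 330 and 310 CPM in saline mice and 169, 186 and 198 CPM in PD mice (log2 fold change -0.77). Blk, a Src family kinase, and Btk, the Tec family kinase of X-linked agammaglobulinaemia, had log2 fold changes of -0.69 and -0.65. Thus the 6 transcripts covered a range of falls from 1.57-fold for Btk to 2.75-fold for Bank1, and in none of them did a PD mouse reach a saline mouse.

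The 7 pan-B surface and associated genes fell as a group, with 7 of 7 called lower and a median log2 fold change of -0.96. Ms4a1 (CD20, ENSMUSG00000024673, GRCm38 chr19:11249675-11266241), a tetraspan protein of mature B cells, measured 946, 1036 and 853 CPM in saline mice and 395, 433 and 428 CPM in PD mice. It fell by 1.17 on the log2 scale (SE 0.08, adjusted p = 4.03e-07 by edgeR). Cd22, a sialic acid-binding inhibitory co-receptor, measured 800, 752 and 816 CPM in saline mice and 435, 420 and 377 CPM in PD mice (log2 fold change -0.94). The groups were far apart in both genes, with the saline mice varying more than the PD mice in Ms4a1.

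Cd72, another inhibitory co-receptor, had a log2 fold change of -0.96, and Fcrla, an intracellular Fc receptor-like protein of B cells, of -1.16. Vpreb3, a protein of the endoplasmic reticulum related to the surrogate light chain, measured 67.1, 67.4 and 59.3 CPM in saline mice and 26.1, 26.8 and 29.0 CPM in PD mice (log2 fold change -1.24). The smallest falls of the group were those of Cd37, a tetraspanin, from 547 ± 13.9 CPM to 330 ± 4.99 CPM (log2 fold change -0.73), and Cd40, the receptor for T cell help, from 71.0 ± 4.28 CPM to 42.1 ± 1.32 CPM (-0.75). Cd37 and Cd40 are also known to be expressed by other leukocytes.

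The transcription factors did not move together. Of 5, 3 fell, 1 rose and 1 did not pass the test, with a median log2 fold change of -0.74. Pax5, the B lineage commitment factor, measured 20.7, 18.5 and 24.6 CPM in saline mice and 11.7, 9.52 and 9.74 CPM in PD mice (log2 fold change -1.04, SE 0.14, adjusted p = 8.94e-05 by edgeR). Ebf1, which acts with Pax5, fell from 145 ± 4.37 CPM to 86.7 ± 1.62 CPM (log2 fold change -0.74), and Pou2af1 (OCA-B), the octamer coactivator, from 154 ± 11.5 CPM to 87.7 ± 2.65 CPM (-0.81).

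The 2 related ETS factors differed. Spib, used by B cells and plasmacytoid dendritic cells, measured 207, 152 and 220 CPM in saline mice and 185, 159 and 135 CPM in PD mice, and the groups overlapped (log2 fold change -0.27, SE 0.14, adjusted p = 0.113 by edgeR). Spib is rich in G and C (59.1%). Within each group, the libraries differed in how their levels followed GC content, with slopes from -0.14 to 0.09 in log2 per 10 percentage points. The GC correction instead removed each library's GC trend relative to the mean of all libraries, which can include a difference between the groups. With it, the log2 fold change of Spib was -0.65 (adjusted p = 1.68e-05 by edgeR). Spib passed the threshold also without saline mouse 2 (-0.41, adjusted p = 0.00571) or without PD mouse 1 (-0.39, adjusted p = 0.0425). Spi1 (PU.1), which both B cells and macrophages use, measured 127, 123 and 126 CPM in saline mice and 165, 180 and 176 CPM in PD mice. It rose by 0.47 (SE 0.06, adjusted p = 8.16e-05 by edgeR), with every PD mouse above every saline mouse. Under scaling to 12 endothelial markers its direction turned, with a log2 fold change of -0.51. That value lay within the range of those markers themselves on that scale (-0.86 to 0.68).

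The macrophage markers rose by more than Spi1, with log2 fold changes from 1.59 to 3.19. Under endothelial marker scaling they were still called higher, with a median of 1.07. All 10 of the 10 macrophage markers rose, with a median log2 fold change of 2.05, and their summed expression was 2389 to 2535 CPM in saline mice and 9986 to 10782 CPM in PD mice. The highest of them were Lyz2 (lysozyme, log2 fold change 2.03) and C1qb (complement, 2.23), and the largest changes were those of Cd14 (3.19) and C1qa (2.38). Cd14 measured 51.1, 53.1 and 52.0 CPM in saline mice and 437, 480 and 506 CPM in PD mice. No macrophage marker was at 0 in any library, and the part of macrophage RNA in the level of Spi1 was not tested.

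**Figure D3:**
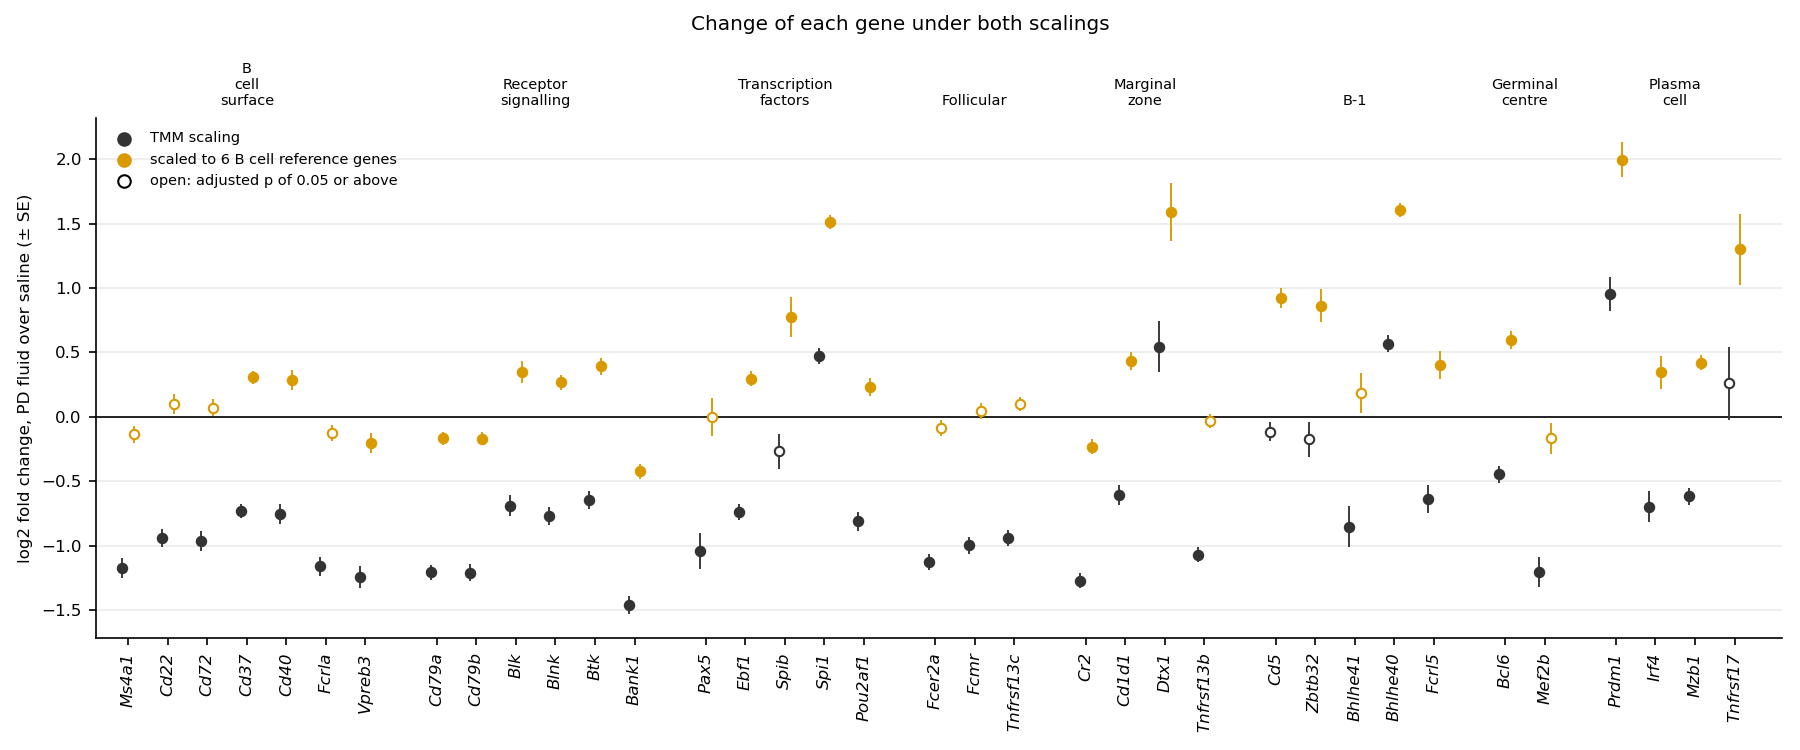
Log2 fold change of each member (PD over saline) with bars of 1 SE, grouped by the cell type they mark, after TMM scaling and after scaling to 6 other B cell genes (open symbols did not pass the threshold). After TMM scaling 28 members were called lower, whereas after B cell scaling the members lie from -0.42 (Bank1) to 1.997 (Prdm1), with 20 called higher and 5 lower, when 93.0% of all tested genes were called higher.

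All 3 follicular members with a row fell, with a median log2 fold change of -0.997 and a summed expression of 49.1% of the saline level. Fcer2a (CD23, ENSMUSG00000005540, GRCm38 chr8:3681737-3694175), the low affinity IgE receptor that B-1 and marginal zone cells lack, measured 587, 564 and 571 CPM in saline mice and 270, 268 and 251 CPM in PD mice. The fall was -1.13 (SE 0.06, adjusted p = 5.31e-08 by edgeR). Fcmr, the IgM Fc receptor, measured 938, 1054 and 918 CPM in saline mice and 489, 479 and 490 CPM in PD mice (log2 fold change -0.997). Tnfrsf13c, the BAFF receptor needed for the survival of mature B cells, fell from 324 ± 17.8 CPM to 169 ± 4.57 CPM (-0.94). The PD mice were close to each other in all 3 genes and none reached a saline mouse.

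The 4 other follicular-type genes examined, which are no members, also fell (4 of 4, median -0.68). Ighd, the heavy chain constant region of IgD, measured 2480, 2633 and 2418 CPM in saline mice and 884, 875 and 913 CPM in PD mice, a log2 fold change of -1.50 (SE 0.06, adjusted p = 8.21e-09 by edgeR). Cxcr5, the follicular homing receptor, had a log2 fold change of -0.73.

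Of the 4 marginal zone members 3 fell and 1 rose, with a median log2 fold change of -0.84. Cr2 (CD21), the complement receptor that marginal zone cells carry at high and follicular cells at moderate level, measured 347, 333 and 340 CPM in saline mice and 146, 137 and 140 CPM in PD mice. It fell by 1.27 on the log2 scale (SE 0.06, adjusted p = 2.07e-08 by edgeR), and the ratio of Cr2 to Fcer2a in CPM was 0.589 to 0.595 in saline mice and 0.511 to 0.557 in PD mice. Tnfrsf13b (TACI), a receptor for BAFF and APRIL, fell from 310 ± 10.2 CPM to 148 ± 2.55 CPM (log2 fold change -1.07). Cd1d1, which presents lipids to NKT cells, fell from 117 ± 4.55 CPM to 76.9 ± 7.21 CPM (-0.60). Its near-identical neighbour Cd1d2 could share reads with it, so that this value is uncertain.

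Dtx1, a Notch pathway ubiquitin ligase high in marginal zone cells, was the marginal zone member called higher. It measured 46.4, 32.2 and 58.2 CPM in saline mice and 82.6, 63.4 and 53.5 CPM in PD mice, so that the groups overlapped, and its log2 fold change was 0.55 (SE 0.20, adjusted p = 0.0330 by edgeR). Dtx1 is also rich in G and C (59.5%), and with the GC correction its log2 fold change was 0.14 (adjusted p = 0.341 by edgeR). DESeq2 did not call it (adjusted p = 0.122), and its call was lost without saline mouse 1, saline mouse 2, PD mouse 1 or PD mouse 2, with log2 fold changes from 0.35 to 0.75 over the 6 mice left out in turn. Under endothelial marker scaling its direction turned as well (-0.43), to a value within the range of those markers themselves. Of 4 other marginal zone genes, 3 rose and 1 fell. Plxnd1 (1.28) and Cd9 (0.66), which endothelial cells also express, were among those that rose, whereas S1pr1 (-0.23), which endothelial and T cells express as well, fell. Under endothelial marker scaling 0 of these 4 were higher, 3 lower and 1 uncalled, with Cd9 at -0.33, when 72.2% of all tested genes were lower.

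The B-1 members were mixed, with 2 lower, 1 higher and 2 not called, and a median log2 fold change of -0.18. Cd5, the surface marker of B-1a cells, which T cells carry too, measured 83.2, 75.2 and 88.0 CPM in saline mice and 77.2, 74.7 and 75.6 CPM in PD mice (log2 fold change -0.12, SE 0.07, adjusted p = 0.203 by edgeR). Zbtb32, a zinc finger repressor of B-1 and memory B cells, measured 10.4, 12.8 and 11.0 CPM in saline mice and 9.27, 10.8 and 10.2 CPM in PD mice (log2 fold change -0.18, SE 0.13, adjusted p = 0.279). The groups overlapped in both genes. With the GC correction, Cd5 was called lower (log2 fold change -0.25, adjusted p = 0.00571 by edgeR).

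Bhlhe41, a transcription factor that B-1a cells need, measured 26.0, 22.0 and 27.6 CPM in saline mice and 11.6, 12.7 and 17.7 CPM in PD mice (log2 fold change -0.85, SE 0.16, adjusted p = 8.96e-04 by edgeR). Fcrl5, an Fc receptor-like protein of B-1 and marginal zone cells, fell from 22.2 ± 1.34 CPM to 14.3 ± 1.01 CPM (-0.64). Bhlhe40, the close relative of Bhlhe41 that activated T cells and macrophages also express, measured 143, 153 and 143 CPM in saline mice and 204, 214 and 234 CPM in PD mice, and rose by 0.57 (SE 0.07, adjusted p = 4.47e-05), though under endothelial marker scaling its log2 fold change was -0.42. The 2 relatives thus moved apart, and the ratio of Bhlhe40 to Bhlhe41 in CPM was 5.19 to 6.96 in saline mice and 13.2 to 17.5 in PD mice. Bhlhe40 also made up most of the summed expression of the B-1 members, which was 283 to 292 CPM in saline mice and 316 to 353 CPM in PD mice.

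T cells, which carry Cd5, were present in every library. Of 12 T cell markers 8 were lower and 0 higher, with a median log2 fold change of -0.31 and a summed expression of 3231 to 3370 CPM in saline mice and 2448 to 2684 CPM in PD mice. Lck (-0.43), Cd2 (-0.70) and Trbc2 (-0.52) fell, whereas Cd3e (0.06, adjusted p = 0.539 by edgeR) did not pass the test, and none of the 12 was at 0. The part of T cells in the level of Cd5 was not tested.

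The 6 other genes used for B-1 cells gave 4 higher, 1 lower and 1 not called. Il5ra, the IL-5 receptor chain that B-1 cells respond through, measured 34.0, 34.5 and 35.1 CPM in saline mice and 12.5, 14.3 and 15.1 CPM in PD mice, a log2 fold change of -1.31 (SE 0.10, adjusted p = 1.36e-06 by edgeR). Itgam (CD11b), found on peritoneal B-1 cells and on macrophages, measured 20.3, 14.1 and 21.3 CPM in saline mice and 129, 120 and 112 CPM in PD mice (log2 fold change 2.69). Il10, a cytokine of B-1 cells and of many myeloid and T cells, rose by 1.80, and Plscr1, a phospholipid scramblase, by 0.78. Itgam and Il10, which myeloid cells also express, were among those that rose, as was Spn (0.41), and Il5ra was the 1 called lower. The call of Spn was lost with GC correction (0.27, adjusted p = 0.0538 by edgeR), and Spn stood at -0.57 under endothelial marker scaling. Under endothelial marker scaling 2 of the 6 were higher, 3 lower and 1 uncalled, when 72.2% of all tested genes were lower and 8.15% higher. The part of RNA from other cells in these values was not tested.

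**Figure D4:**
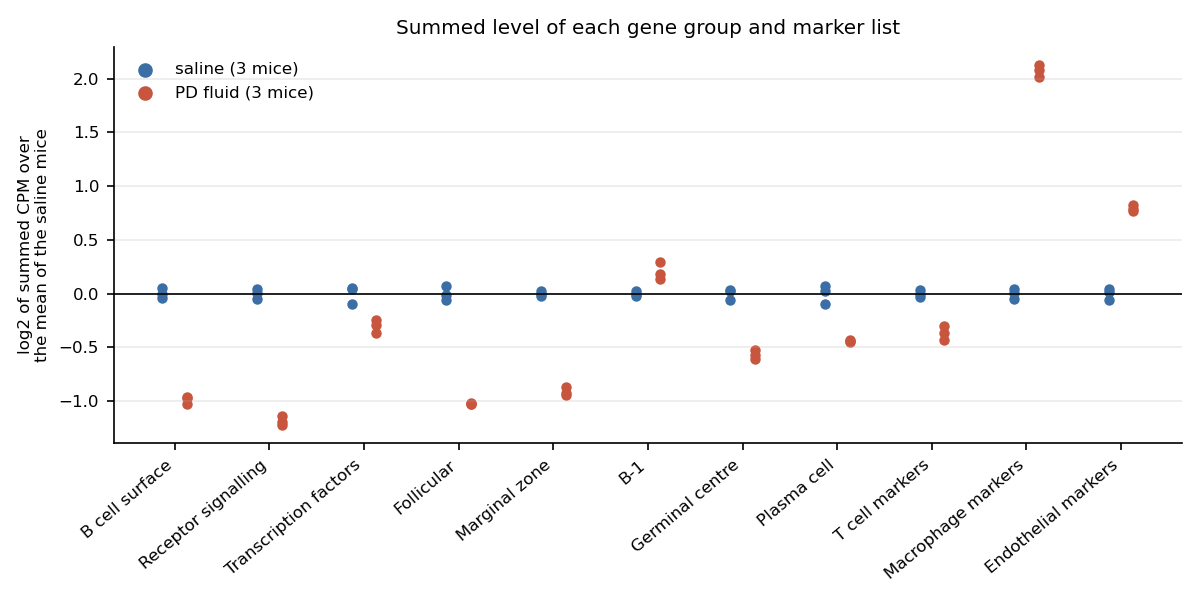
Log2 of the summed CPM of each group of members, and of the T cell, macrophage and endothelial markers, in each mouse over the mean of the saline mice, with saline and PD mice as separate points. The surface, signalling, follicular and marginal zone sums of the PD mice lie near -1 (44.0% to 53.2% of the saline level), the B-1 sum, carried mostly by Bhlhe40, lies above 0 (115%), and the macrophage sum lies highest (421%).

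Both germinal centre members with a row fell. Bcl6, the master repressor of the germinal centre programme, which follicular helper T cells and other leukocytes also express, measured 86.0, 79.9 and 83.7 CPM in saline mice and 62.8, 60.0 and 60.2 CPM in PD mice (log2 fold change -0.45, SE 0.07, adjusted p = 2.39e-04 by edgeR). Mef2b, a transcription factor upstream of Bcl6, measured 20.3, 19.9 and 22.8 CPM in saline mice and 9.31, 8.34 and 9.65 CPM in PD mice (log2 fold change -1.21, SE 0.12, adjusted p = 8.76e-06). Mef2b overlaps Borcs8 on the same strand over 7609 bases in the GENCODE M21 annotation, so that reads of the 2 genes could be split either way, and Borcs8 had a log2 fold change of -0.37.

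The 8 other germinal centre genes were split, with 2 higher, 4 lower and 2 not called (median -0.37). Rgs13 (-0.59), a regulator of chemokine signalling in germinal centres, and Neil1 (-0.27), a DNA glycosylase, fell, although Neil1 was not called by DESeq2 (adjusted p = 0.0509), without the filter, with the replicate block (0.0604) or without 5 of the 6 mice in turn (all but PD mouse 1, -0.29 to -0.22). Fas (0.68), a death receptor of many cell types, and S1pr2 (0.52, adjusted p = 0.0178 by edgeR), a sphingosine phosphate receptor, rose. The call of S1pr2 was lost with GC correction (0.16, adjusted p = 0.356), without PD mouse 1 (0.35, adjusted p = 0.0920) and without saline mouse 3 (0.44, adjusted p = 0.0621), and under endothelial marker scaling it stood at -0.46. Fas stood at -0.31 (adjusted p = 0.0421 by edgeR) on the endothelial marker scale. Follicular dendritic cell markers, of which 5 of 6 had a row, rose in all 5, from a sum of 329 to 347 CPM in saline mice to 856 to 922 CPM in PD mice. Under endothelial marker scaling 1 of these markers was higher, 2 were lower and 2 uncalled (median -0.27). On that scale 72.2% of all tested genes were lower (median -0.97). Cxcl13, the chemokine that attracts B cells through Cxcr5 and that macrophages and stromal cells also make, led them and measured 14.8, 16.8 and 15.6 CPM in saline mice and 288, 318 and 338 CPM in PD mice (log2 fold change 4.32, SE 0.09), followed by Clu (clusterin, 1.09).

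Of the 4 plasma cell members 1 rose, 2 fell and 1 did not pass the test. Prdm1 (Blimp-1, ENSMUSG00000038151, GRCm38 chr10:44437177-44528501), the repressor that ends the B cell programme, measured 13.04, 10.6 and 9.77 CPM in saline mice and 23.6, 20.1 and 21.2 CPM in PD mice. It rose by 0.95 (SE 0.13, adjusted p = 1.21e-04 by edgeR), the largest rise of the members, with no overlap between the groups. The ratio of Prdm1 to Pax5, which Prdm1 is known to repress, was 0.398 to 0.630 in saline mice and 2.02 to 2.17 in PD mice. Prdm1 is also expressed by macrophages, T cells and endothelial cells, whose part was not tested, and under scaling to endothelial markers its log2 fold change was -0.03.

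The other plasma cell members did not follow Prdm1. Irf4, needed for plasma cells and used by activated T cells and macrophages, measured 31.0, 34.4 and 27.7 CPM in saline mice and 20.3, 20.5 and 16.4 CPM in PD mice (log2 fold change -0.70, SE 0.12, adjusted p = 5.36e-04 by edgeR). Mzb1, a chaperone of immunoglobulin assembly in marginal zone B cells and plasma cells, measured 123, 127 and 116 CPM in saline mice and 76.2, 78.7 and 83.8 CPM in PD mice (log2 fold change -0.62, SE 0.07). Its ratio to Cd79a in CPM was 0.0581 to 0.0617 in saline mice and 0.0854 to 0.0926 in PD mice, since Mzb1 fell less than Cd79a. Tnfrsf17 (BCMA), the survival receptor of plasma cells, was the lowest member at 1.33, 1.48 and 1.28 CPM in saline mice and 1.91, 1.51 and 1.45 CPM in PD mice, with overlapping groups (log2 fold change 0.26, SE 0.28, adjusted p = 0.450).

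Among 7 other plasma cell genes, 6 rose and 1 fell, with a median log2 fold change of 0.57. Under endothelial marker scaling 0 were higher, 5 lower and 2 uncalled (median -0.42), when 72.2% of all tested genes were lower (median -0.97). With GC correction the calls of Derl3 (0.16, adjusted p = 0.398 by edgeR), Creld2 (0.19, adjusted p = 0.0681) and Fkbp11 (0.47, adjusted p = 0.0564) were lost. Jchain (1.05), Xbp1 (0.44) and Sdc1 (0.35) were still called higher with it. Jchain, which joins IgM and IgA polymers, measured 1149, 1225 and 1107 CPM in saline mice and 1924, 2122 and 2274 CPM in PD mice (log2 fold change 0.86, SE 0.07, adjusted p = 3.48e-06 by edgeR), and -0.13 (adjusted p = 0.375) under endothelial marker scaling. Sdc1 (syndecan 1, 0.70) and Xbp1 (0.52), a factor of the secretory programme in many cells, rose, and Txndc5 (-0.35), a disulfide isomerase, fell. Pancreatic acinar cells are secretory as well. The 8 acinar genes, led by Amy2a5 and by Cela2a and Cpa1, were higher with a median log2 fold change of 11.81, and the part of acinar RNA in Xbp1 and the other secretory genes was not tested.

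The members were then set against 6 other B cell genes, among them Ly6d (-0.94), H2-Ob (-1.27) and Ralgps2 (-1.29), which had all fallen, with a median log2 fold change of -0.96. Their summed expression was 3761 to 3934 CPM in saline mice and 1860 to 1949 CPM in PD mice. Scaling to them moved the median of all tested genes by 1.04 on the log2 scale, and 93.0% of all tested genes were then called higher and 0.386% lower. On that scale 20 members were called higher, 5 lower and 11 neither. The 6 reference genes themselves ranged from -0.25 to 0.24 on that scale, and 16 members lay within that range, 19 above it and 1, Bank1 at -0.42, below it.

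The calls by cell type are read against that 93.0%, and a share of higher calls near it says nothing particular of the members. The 3 follicular members were uncalled on the B cell scale (-0.09 for Fcer2a, 0.04 for Fcmr and 0.10 for Tnfrsf13c), and 4 of the 7 surface genes were uncalled too. Among the signalling genes, Cd79a (-0.17), Cd79b (-0.17) and Bank1 (-0.42) were called lower and Blk (0.35), Blnk (0.27) and Btk (0.39) higher. Of the marginal zone genes, Cr2 (-0.23) was lower, Cd1d1 (0.43) and Dtx1 (1.59) were higher, and Tnfrsf13b (-0.03) was uncalled. Of the B-1 members 4 of 5 were called higher, near the share of all genes, with values of 0.92 for Cd5, 0.86 for Zbtb32, 0.40 for Fcrl5 and 1.61 for Bhlhe40, and Bhlhe41 (0.18) was uncalled. The 4 plasma cell members were called higher too, as were most genes (Irf4 0.35, Mzb1 0.42, Tnfrsf17 1.2995 and Prdm1 1.997). The part of RNA from other cells in these values was not tested.

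Scaled instead to the 12 T cell markers, 28 members were lower, 4 higher and 4 uncalled, when 11.1% of all tested genes were lower and 44.9% higher. The median of the members was -0.51 on that scale, and that of all genes had shifted by 0.25. Of the receptor signalling, surface and follicular members each one was called lower. The T cell markers themselves ranged from -0.45 to 0.38 on that scale. Blk (-0.44) and Btk (-0.40) lay within that range, and the others of these groups lay below it. Cd5 was at 0.13 (adjusted p = 0.193 by edgeR) and Zbtb32 at 0.07 (adjusted p = 0.646) on that scale.

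The wider receptor pathway gave a mixed count. Of 24 further genes, 13 fell, 4 rose and 7 did not pass the test, with a median log2 fold change of -0.20 and a summed expression of 5884 to 6302 CPM in saline mice and 5300 to 5351 CPM in PD mice. The balance depended on the scaling, for 9 were higher, 5 lower and 10 uncalled when scaled to T cell markers, and 1 higher and 23 lower when scaled to endothelial markers. Of all tested genes, 44.9% were higher and 11.1% lower on the T cell scale, and 72.2% lower on the endothelial scale. Lat2 (NTAL), an adaptor of B and mast cells, measured 244, 250 and 242 CPM in saline mice and 107, 113 and 118 CPM in PD mice (log2 fold change -1.12, SE 0.06, adjusted p = 9.34e-08 by edgeR). Rasgrp3, which activates Ras behind the receptor, fell by 0.99 on the log2 scale. Cd81, a tetraspanin of many cells, stood at 0.14 (adjusted p = 0.149 by edgeR).

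Fcgr2b, the inhibitory Fc receptor of B cells, which macrophages and liver sinusoidal endothelium also express, went the other way. It measured 101, 105 and 103 CPM in saline mice and 270, 285 and 296 CPM in PD mice, a log2 fold change of 1.46 (SE 0.06, adjusted p = 1.09e-08 by edgeR). Pik3cd, the leukocyte PI3-kinase subunit p110δ, rose by 0.53 (adjusted p = 0.0157), though its saline mice (145, 97.3 and 153 CPM) and PD mice (221, 195 and 155 CPM) lay close together. It was not called by DESeq2 (adjusted p = 0.0545) or without PD mouse 1 (0.40, adjusted p = 0.0706), its log2 fold change was 0.29 with GC correction, and under endothelial marker scaling it stood at -0.45. Ptpn6 (SHP-1), the phosphatase that Cd22 and Cd72 recruit, fell by 0.26 on the log2 scale.

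Other cells moved in the same libraries. Of 12 endothelial markers 11 rose, with a median log2 fold change of 0.96 and a sum of 1595 to 1719 CPM in saline mice and 2839 to 2940 CPM in PD mice. Plvap (1.02), Tie1 (1.65) and Robo4 (1.55) were among those that rose, and Pecam1 (0.13, adjusted p = 0.0704 by edgeR) did not pass the test. Scaled to these markers, 35 of the 36 members were lower and none higher, when 72.2% of all tested genes were lower and 8.15% higher and the median of all genes had moved by -0.98. The 12 markers themselves ranged from -0.86 to 0.68 on that scale. Ptprc measured 2295, 2520 and 2304 CPM in saline mice and 1405, 1482 and 1531 CPM in PD mice (log2 fold change -0.69, SE 0.07). Of 6 plasmacytoid dendritic cell genes, 5 rose, including Cox6a2 (1.58) and Bst2 (0.69), whereas Tcf4 (-0.07) did not pass the test. Under endothelial marker scaling 1 of the 6 was higher, 3 were lower and 2 uncalled. Klk1 (6.54), a tissue kallikrein that the pancreas also makes, rose as well, in the same mice in which the 8 acinar genes rose, and the part of acinar RNA in it was not tested. Of 6 pericyte markers 4 rose, including Pdgfrb (1.09), Notch3 (0.96) and Rgs5 (0.26), and Kcnj8 (-0.15) did not pass. On the endothelial marker scale 0 of the 6 pericyte markers were higher, 3 lower and 3 uncalled. The call of Notch3 was lost with GC correction (0.54, adjusted p = 0.106) and without saline mouse 2 (0.71, adjusted p = 0.0512), and that of Rgs5 without saline mouse 1 (0.22, adjusted p = 0.0593). Of 5 adipocyte markers tested, Fabp4 (0.51), which capillary endothelium shares, rose and the other 4, Cidec among them (-0.36), did not pass. With endothelial marker scaling 0 of these 5 were higher, 4 lower and 1 uncalled. The part of these cells in the B cell values was not tested.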

How the data were processed

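RNA from 3 saline and 3 PD mice was analysed at the level of genes, grouped by the treatment in the sample labels, with 0 columns of sample values unmatched. The authors deposited read counts per gene, without normalization, and FPKM values per mouse, which were used to order genes by level only. The authors' group means, log2 ratios, p-values and FDR in the deposited table were not used. The submitters' processing notes name fastp 0.18.0, Bowtie2 2.2.8, HISAT2, StringTie 1.3.1 and RSEM without their roles, and the build and annotation are not given in the sources used here. The library kit is not stated to mark strand, so that antisense genes overlapping a member cannot be told apart from it. Multi-mapping and overlapping genes may also share reads.

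Counts were analysed in R 4.3.3 with edgeR 4.0.16 (filterByExpr, TMM, quasi-likelihood test without covariate, Benjamini-Hochberg adjustment, threshold 0.05). The alternatives were a replicate block, no filter, RLE size factors, DESeq2 1.42.0, limma 3.58.1 (voom), scaling to endothelial markers or to other B cell genes, and leaving out each mouse. GC correction per library (lowess, span 0.3, over 13987 genes), alone and with the block, and scaling to T cell markers were chosen after seeing the data. Figures and tables were made with Python 3.11.15, pandas 2.3.3 and matplotlib 3.10.9. Gene positions are those of GRCm38 (GENCODE M21), matched by Ensembl identifier, and promoters are from RefSeq (GRCm38.p6).

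All members are named. Of each other list the 2 genes of highest mean CPM and the 2 called genes of largest change in each direction, with a mean of at least 1 CPM, are named. Cd3e, Borcs8, Spn, Derl3, Creld2 and Fkbp11 were added after their values were seen. Some genes that this rule names are not reported here. The members, lists and tests were chosen with earlier results of these data known. The labels do not say whether mice shared a cage, batch or day of sorting, and p-values measure the spread between 3 mice a group.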

Additional observations from a re-analysis of the deposited data

How the results depend on the processing

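The count of 28 members lower and 4 higher was the same with the replicate block, without the filter, with RLE size factors and with limma-voom. DESeq2 gave 28 lower and 3 higher. Leaving out each mouse gave 28 to 29 members lower and 3 to 4 higher, 3121 to 3685 genes lower (3887 with all mice) and 3852 to 4333 genes higher (4359 with all mice). Deviations from the group means correlated at 0.10, 0.04 and -0.17 between same-numbered mice. Values this few, from deviations centred within each small group, cannot decide whether the mice were paired. The replicate block gave 4242 genes higher and 3667 lower and changed no call of a member. GC correction gave 30 members lower and 3 higher, and with the replicate block 31 and 3.

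Scaling moved the calls most. Under endothelial marker scaling 1142 genes were higher and 10108 lower, and 0 members were higher. The log2 fold changes of Spi1 (-0.51), Dtx1 (-0.43), Bhlhe40 (-0.42), Prdm1 (-0.0293) and Tnfrsf17 (-0.73) were reversed there. Each of them lay within the range of the endothelial markers themselves (-0.86 to 0.68), and Prdm1 was not called (adjusted p = 0.858 by edgeR). Under T cell marker scaling 1553 genes were lower, and Cd5 (0.13) and Zbtb32 (0.0747) changed sign. Under B cell reference scaling 13030 genes were higher and 54 lower, and 20 members were higher and 5 lower. The members that changed sign there were Cd22 (0.10), Cd72 (0.0715), Cd37 (0.31), Cd40 (0.29), Blk (0.35), Blnk (0.27), Btk (0.39), Ebf1 (0.30), Spib (0.77), Pou2af1 (0.23), Fcmr (0.0431), Tnfrsf13c (0.10), Cd1d1 (0.43), Cd5 (0.92), Zbtb32 (0.86), Bhlhe41 (0.18), Fcrl5 (0.40), Bcl6 (0.59), Irf4 (0.35) and Mzb1 (0.42). These reversals follow from the scaling itself, which sets the chosen markers to no change on average. Bulk counts give no absolute amount of B cell RNA per mouse, and with 21973426 to 26374292 counts a library the SE was largest for Tnfrsf17, the member of lowest count.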
